A study of Mus musculus with 28 samples.

Results

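The collagen genes of the mouse were examined in testis mRNA. Members were all rows of the gene table whose symbol is Col, a number, the letter a and a number, which gave 44 of 34839 genes, and 216 of the 109282 transcripts listed belong to them. The series asks what the domains of PRDM9, the methyltransferase that places meiotic recombination sites, do in meiosis. mRNA was measured in whole testis of C57BL/6 mice in 5 libraries: 2 from Prdm9 knockout (KO) mice, 2 from Hop2 KO mice and 1 from an adult wild type. The approved symbol of Hop2 is Psmc3ip. Its product helps strand exchange, and spermatocytes lacking either gene stop in meiotic prophase. The age of the knockout mice is not given, so genotype, arrest and age cannot be told apart in a comparison with wild type. Whether the libraries of a knockout stem from separate animals is not stated in the labels. The p-values therefore rest on a spread between libraries that may be technical.

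Collagens are triple helices of alpha chains, each chain the product of its own gene. Fibrillar chains (types I, II, III, V, XI, XXIV and XXVII) build the fibres of the interstitium and the testis capsule, type VI forms beaded microfibrils beside them, and fibril-associated chains bind to the surface of fibres. Type IV chains form the network of basement membranes, which in the testis surrounds every seminiferous tubule and is laid down by Sertoli cells and peritubular myoid cells, and types XV, XVIII and VII lie in the zone next to it. In this grouping 26 members are interstitial chains (11 fibrillar, 6 beaded microfibril and 9 fibril-associated), 9 belong to the basement membrane and its zone (6 of type IV and 3 others), 3 form hexagonal networks, 4 span the cell membrane and 2 fall in no class.

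Values are the authors' TPM, a measure per transcript length, after a rescaling that leaves column sums of 825459 to 953598 in the knockouts and 1622660 in wild type. Read depth is unknown. In the Hop2 KO libraries Psmc3ip stood at 3.51 and 5.06, under its values of 22.8 and 26.4 in the other knockout and of 197 in wild type, matching the Hop2 labels. Prdm9 itself stood at 4.73 and 5.93 in its own knockout, at 10.7 and 15.0 in the Hop2 KO libraries, and at 6.20 in wild type. As the deleted exons are not given, it checks the label only weakly. As labelled, the tissue held markers of testis cells: the summed value of 8 Sertoli cell markers was 1162 to 1474 in the knockouts and 261 in wild type, and that of 7 Leydig cell markers 26000 to 73270 and 5884. The 6 spermatid markers summed to 0.89 to 29.1 in the knockouts and 113200 in wild type, and 6 pachytene markers to 8.15 to 16.9 and 8240. In whole testis, fewer cells of a type and less RNA per cell cannot be told apart.

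The knockouts and wild type had their collagen mRNA in different chains. In wild type the highest were Col22a1 (612), Col20a1 (146) and Col16a1 (61.1), which are fibril-associated, followed by the fibrillar Col2a1 (38.5) and the microfibril chain Col6a4 (37.1). In the knockouts the highest by mean were Col18a1 of the basement membrane zone, the type IV chain Col4a1, the fibrillar Col1a2 and Col3a1, and the microfibril chain Col6a1. In all 4 knockout libraries 19 of the 44 members lay above wild type and 24 lay below it, and only Col6a3 overlapped. Of the 16261 genes tested further on, 44.2% lay above wild type in all 4 and 46.9% below, so such separation was common. No such share was taken for genes under the minimum of that test. Below, values per library are given in the order Prdm9 KO 1, Prdm9 KO 2, Hop2 KO 1, Hop2 KO 2 and wild type.

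**Figure D1:**
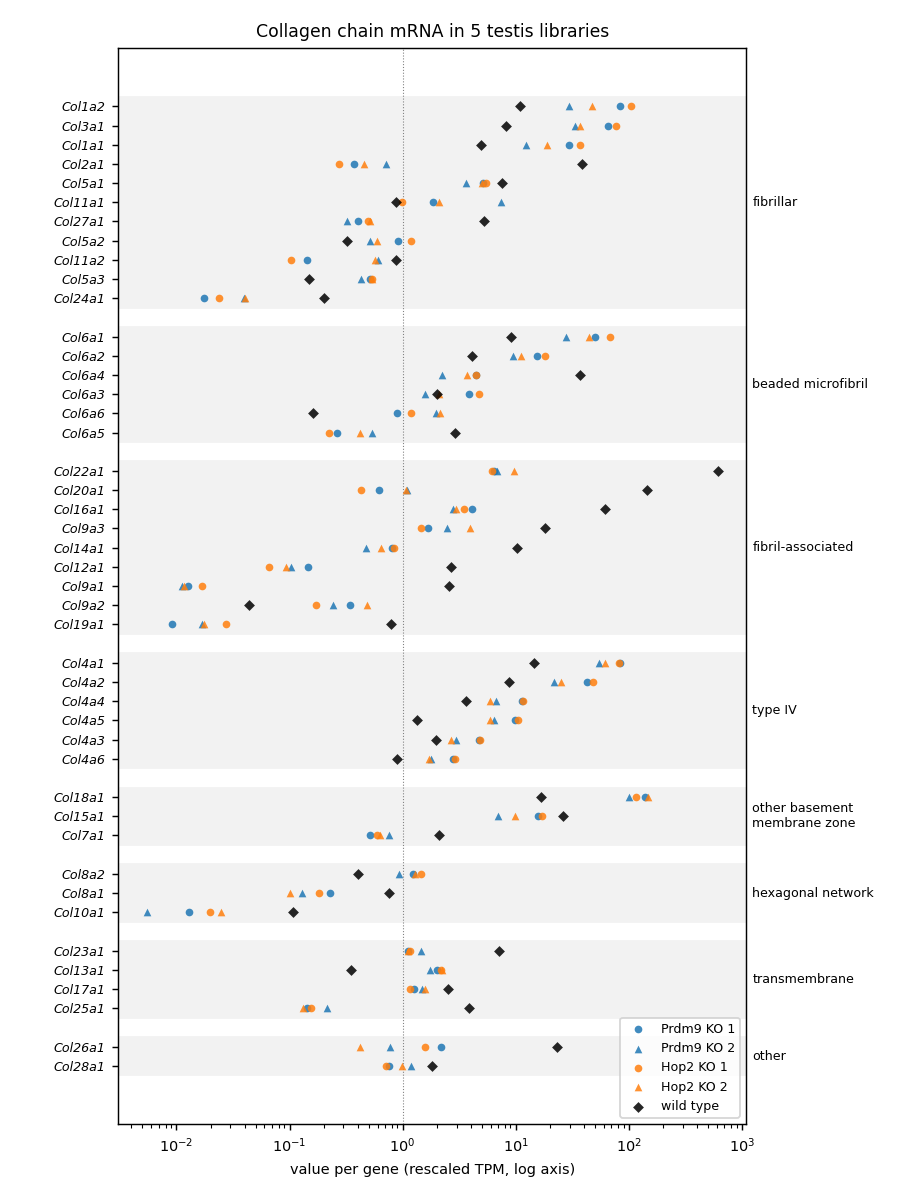
Value of each of the 44 collagen genes in the 5 testis libraries, in rescaled TPM on a log axis, grouped by class, with circles for library 1 and triangles for library 2 of Prdm9 KO (blue) and Hop2 KO (orange) and black diamonds for wild type. Wild type lies to the left of all knockout libraries for the 6 type IV chains and to the right for 8 of the 9 fibril-associated chains, and the dotted line marks a value of 1.

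Summed over the 44 genes, collagen mRNA was 599, 356, 641 and 466 in the knockout libraries and 1103 in wild type. As a share of all mRNA in a library these sums were 0.0686%, 0.0432%, 0.0715%, 0.0488% and 0.0680%, so the wild-type share lay between those of the knockout libraries. The make-up of this total differed, and a share within collagen does not depend on how a library was scaled. Fibril-associated chains made up 2.37%, 3.96%, 1.98% and 4.06% of collagen mRNA in the knockouts and 77.4% in wild type. Type IV chains made up 26.02%, 26.4%, 25.1% and 22.1%, against 2.80% in wild type. Fibrillar chains stood at 31.3%, 24.99%, 35.5% and 24.4%, against 7.07%. With 1 wild-type library these shares have no replicate check on the wild-type side, while the 4 knockout libraries stayed within a narrow band for type IV chains.

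**Figure D2:**
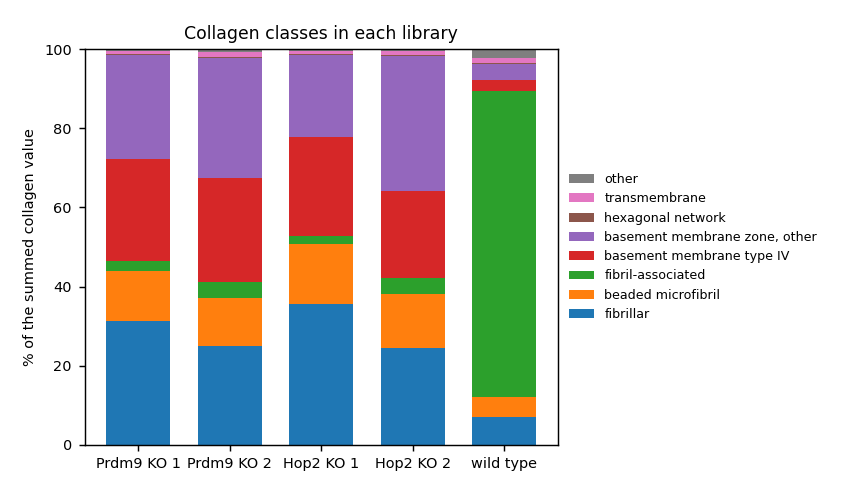
Share of summed collagen mRNA held by each class in each library, in percent of the collagen total. Fibril-associated chains (green) hold 77.4% in wild type and at most 4.06% in a knockout library, and the basement membrane classes (red and purple) hold 46.0% to 56.6% in the knockouts and 6.89% in wild type.

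The mean of both knockouts was compared with wild type by limma on log2(value + 1), in a fit of all 5 libraries over 16261 genes with a mean of at least 1. This fit takes the spread of the lone wild-type library to be that of the knockouts. Of the 44 collagen genes 31 were tested, and 13 had a mean under 1 and were not. Of the 31, 9 were higher in the knockouts (36.3% of all tested genes were) and 12 were lower (40.5% of all tested genes), with Benjamini-Hochberg adjusted p under 0.05. The median log2 change was 0.66 for tested collagen genes and -0.065 for all tested genes. The knockout libraries all lay above wild type for 16 of the 31 (44.2% of genes) and all below for 14 (46.9%). The counts are thus close to those of genes at large, and the classes differed among themselves: Col22a1, Col16a1 and Col9a3, the fibril-associated chains that did not need wild type to pass the minimum, were called lower, and no type IV chain was. Of the 31, 5 passed the minimum only through their wild-type value (Col2a1, Col27a1, Col20a1, Col14a1 and Col28a1), and all 5 were called lower, which the way they entered the test made likely.

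The balance of the calls depends on the scaling. With columns rescaled to a total of 1000000 the median change of all genes moved to 0.73, with 52.1% called higher and 27.9% lower, and 15 collagen genes were higher and 10 lower, with a collagen median of 0.93. Median-of-ratios scaling gave a median of 0.18 over all genes (40.9% higher, 36.0% lower) and 12 and 10 collagen genes (median 0.75). Quantile normalization gave 0.59 over all genes (50.4% and 31.4%) and 15 and 10 collagen genes (median 1.17). Col22a1, Col16a1 and Col9a3 were called lower, and the 6 type IV chains had positive changes, under each of these scalings. Leaving out library 1 of either knockout changed which members were tested, and the collagen median changed sign. It was -0.17 without Prdm9 KO 1 (34 members tested) and -0.18 without Hop2 KO 1 (32 tested). The number of members with a positive change hardly moved. It was 17 of 31 in the main fit, 17 of 34 without Prdm9 KO 1 and 16 of 32 without Hop2 KO 1.

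**Figure D3:**
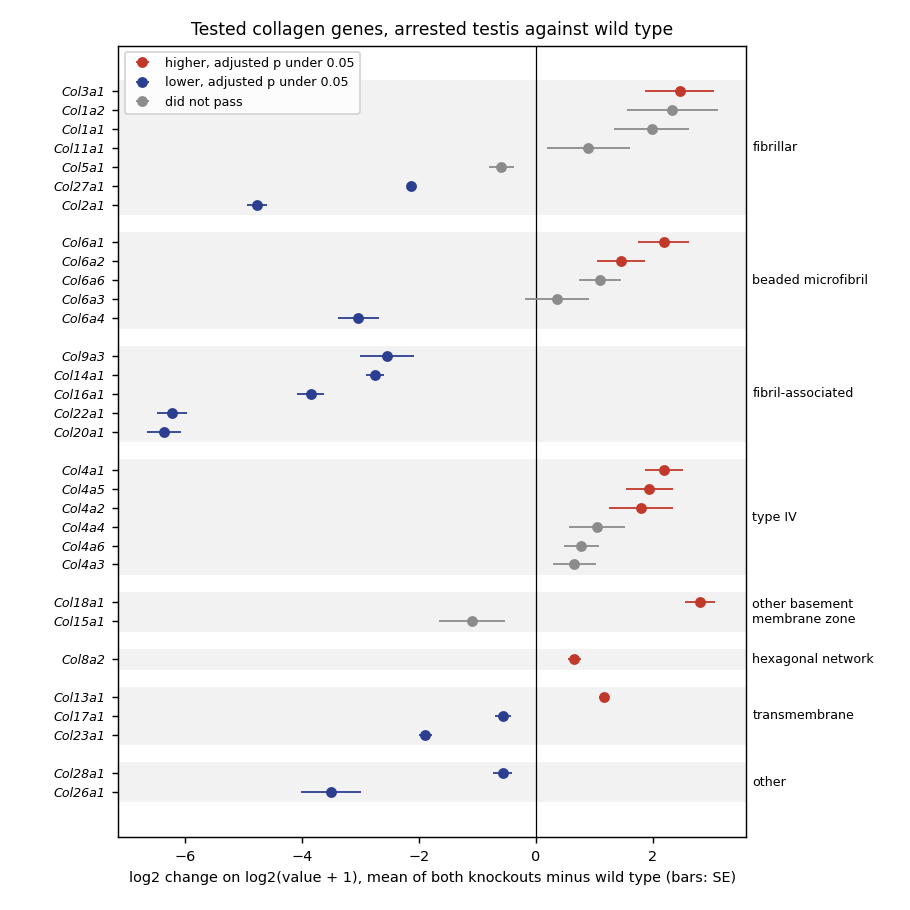
Change of each of the 31 tested collagen genes on the log2(value + 1) scale, mean of both knockouts minus wild type, with bars for the standard error (SE) and colours for the limma call at an adjusted p under 0.05. The tested fibril-associated chains lie between -6.36 and -2.54, and the type IV chains between 0.66 and 2.19.

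Among the fibrillar chains the major fibre chains had high values in the knockouts and the cartilage chain had a high value in wild type. Of 7 tested members, 1 was called higher and 2 lower (36.3% and 40.5% of all tested genes were), and their median log2 change was 0.90. Both lower calls, of Col2a1 and Col27a1, are of genes that passed the minimum only through wild type. Col3a1, whose product forms homotrimers in reticular fibres, was 65.3, 33.5, 76.7 and 37.1 in the knockouts and 8.24 in wild type. Every knockout library was above wild type, by a change of 2.47 in log2 (SE 0.59, limma adjusted p = 0.0244), but without Prdm9 KO 1 the adjusted p was 0.0517 and without the minimum on low values 0.0605. Col1a2, a chain of type I collagen, was 83.6, 29.5, 104.9 and 47.5, against 10.9. Col1a1, its partner chain and named here after its values were seen, was 29.7, 12.4, 37.2 and 19.1, against 4.98. Both type I chains were above wild type in all 4 knockout libraries, with library 1 high in each knockout. Their log2 changes of 2.34 (SE 0.78, limma adjusted p = 0.0581) and 1.99 (SE 0.64, adjusted p = 0.0538) did not pass. Without Prdm9 KO 2 they did (adjusted p = 0.0415 and 0.0417), and they also passed under each of the other scalings and with a minimum mean of 5 (0.0328 and 0.0306). Col1a1 passed with a pseudocount of 0.1 too (0.0458).

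Col2a1 (chr15:97975602-98004724, GRCm38.p6), the fibril chain of cartilage, was 0.371, 0.718, 0.273 and 0.453 in the knockouts and 38.5 in wild type. The groups did not overlap, and the wild-type value was 84.8-fold the knockout mean (log2 -4.77, SE 0.17, limma adjusted p = 0.000189). Col27a1, a fibrillar chain of cartilage named after its values were seen, was 0.320 to 0.513 in the knockouts and 5.29 in wild type (log2 -2.14, adjusted p = 9.14e-05). Col5a1 and Col11a1 encode chains of the minor fibrillar collagens that start fibres. Col5a1 was 3.60 to 5.42 against 7.62 (log2 -0.59, limma adjusted p = 0.0700), a sign that turned to 0.16 with columns rescaled to 1000000. It was called lower with a pseudocount of 5 (adjusted p = 0.0497) and with a minimum mean of 5 (0.0402). Col11a1 was 1.88, 7.42, 0.978 and 2.10 against 0.867, with library 2 the higher of each knockout pair, unlike the type I and III chains (log2 0.90, SE 0.70, adjusted p = 0.306).

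The upstream stretches of Col1a2 and Col3a1 are shown because these chains had like values and changes in the 5 libraries. They come from RefSeq (GRCm38.p6) and end at the base before the transcript start, on the plus strand, at chr6:4505368-4505617 for Col1a2 and chr1:45311288-45311537 for Col3a1. Capitals mark CCAAT or TATAAA, searched on both strands.
Col1a2: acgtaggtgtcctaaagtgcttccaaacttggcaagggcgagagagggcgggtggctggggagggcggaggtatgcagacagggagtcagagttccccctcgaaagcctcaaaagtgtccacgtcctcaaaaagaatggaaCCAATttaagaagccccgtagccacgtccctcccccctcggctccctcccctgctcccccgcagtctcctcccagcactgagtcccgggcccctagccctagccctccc
Col3a1: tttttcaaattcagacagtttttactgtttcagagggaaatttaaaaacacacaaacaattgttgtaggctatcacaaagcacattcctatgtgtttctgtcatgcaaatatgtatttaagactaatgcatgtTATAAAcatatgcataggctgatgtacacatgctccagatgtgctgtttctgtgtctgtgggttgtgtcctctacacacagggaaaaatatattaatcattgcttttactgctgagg
The Col1a2 stretch holds 11 CpG and a CCAAT, whereas that of Col3a1 holds 0 CpG and a TATAAA. The 250 bases upstream of a start held CCAAT on either strand in 33.8% and TATAAA in 12.4% of 32851 promoters in the RefSeq table, and in 34.2% and 13.2% of the 38 promoters of 35 collagen genes found there.

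Type VI microfibril chains also took both directions. Of 5 tested type VI members 2 were called higher and 1 lower, with a median log2 change of 1.10. Of all tested genes 36.3% were called higher and 40.5% lower. Col6a1, a core chain of type VI collagen, was 50.5, 27.7, 68.3 and 44.1 in the knockouts and 9.18 in wild type. Col6a2, the chain it assembles with, was 15.6, 9.42, 18.4 and 11.2, against 4.14. All knockout libraries exceeded wild type for both, with log2 changes of 2.19 (SE 0.44, limma adjusted p = 0.0158) and 1.47 (SE 0.41, adjusted p = 0.0379). The Col6a2 call was lost without Prdm9 KO 1 (adjusted p = 0.0745), without Hop2 KO 1 (0.0732), without the minimum on low values (0.0795), with a pseudocount of 5 (0.0601) and with Prdm9 KO alone against wild type (0.0602).

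Col6a4 went the other way within type VI: it was 4.51, 2.25, 4.47 and 3.73 in the knockouts and 37.1 in wild type, a change of -3.04 in log2 (SE 0.35, limma adjusted p = 0.00346). Col6a3, the third chain of the classical type VI trimer, was 3.90, 1.58, 4.77 and 2.09 against 2.00 and was the 1 member whose knockout and wild-type values overlapped (log2 0.37, adjusted p = 0.569). Col6a6 was 0.885, 1.98, 1.19 and 2.12 against 0.161. It was above wild type in every knockout library, with a log2 change of 1.10 that missed the threshold (limma adjusted p = 0.0532) and passed without Prdm9 KO 1 (adjusted p = 0.0409), with a pseudocount of 0.1 (0.0194) and under each of the other scalings.

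Fibril-associated chains held most of the wild-type collagen mRNA. All 5 tested members were called lower in the knockouts (40.5% of all tested genes were), with a median log2 change of -3.85. Of these 5, Col20a1 and Col14a1 passed the minimum only through wild type. Col22a1 (chr15:71795795-72150979, GRCm38.p6), known from tissue junctions such as that of muscle and tendon, was 6.48, 6.91, 6.22 and 9.61 in the knockouts and 612 in wild type. This is 83.8-fold the knockout mean (log2 -6.22, SE 0.26, limma adjusted p = 0.000267). Col20a1 (chr2:180983323-181017545), a little studied member of the class, was 0.614, 1.10, 0.432 and 1.08, against 146 in wild type. For both genes the 4 knockout libraries lay close together and far under wild type, and the log2 change of Col20a1 was -6.36 (SE 0.29, adjusted p = 0.000348). None of these calls was lost under any alternative that was run.

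Col16a1, Col14a1 and Col9a3 are named after their values were seen. Col16a1 was 4.13, 2.77, 3.49 and 2.98 against 61.1, 18.3-fold the knockout mean (log2 -3.85, SE 0.23, limma adjusted p = 0.000704). Col14a1, whose product binds the fibre surface, was 0.478 to 0.845 against 10.3. Col9a3, a chain of the cartilage type IX collagen, was 1.45 to 3.97 against 18.03 (log2 -2.54, adjusted p = 0.0119). The upstream stretch of Col16a1, shown as an example of a chain that fell, comes from RefSeq (GRCm38.p6) at chr4:130047590-130047816 (plus strand), and its CCAAT is in capitals. It holds 21 CpG.
Col16a1: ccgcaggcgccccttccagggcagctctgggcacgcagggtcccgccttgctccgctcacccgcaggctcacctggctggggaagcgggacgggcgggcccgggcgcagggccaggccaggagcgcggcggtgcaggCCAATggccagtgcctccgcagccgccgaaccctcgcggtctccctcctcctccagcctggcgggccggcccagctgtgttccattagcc
Among the 4 fibril-associated chains with a mean under 1, Col9a1, Col12a1 and Col19a1 were also below wild type in every knockout library. Col9a2 was the exception, at 0.341, 0.242, 0.172 and 0.484 in the knockouts and 0.0440 in wild type.

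Markers of cartilage were examined beside Col2a1, Col9a1 and Col9a3, which are best known from that tissue. Comp, a cartilage matrix protein, was 0.64 to 1.60 in the knockouts and 833 in wild type, and Sox5, a transcription factor of cartilage that is also known from spermatids, was 5.11 to 6.06 and 311. Acan, the main cartilage proteoglycan, went the other way, at 2.16 to 3.11 against 0.531. Matn1, a defining marker of cartilage, was 0 to 0.035 in the knockouts and 0.016 in wild type, and Matn3 and Chad were also under 0.5 in every library. Of the 6 markers 3 were tested, with 1 called higher and 2 lower (36.3% and 40.5% of all tested genes were). The 6 epididymis markers, examined because that tissue adjoins the testis, summed to 0.66 to 0.92 in the knockouts and 0.90 in wild type.

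Type IV chains had higher values in the knockouts, and no test of the class as a whole was made. All 6 lay above wild type in all 4 knockout libraries (44.2% of all tested genes did), with a median log2 change of 1.43. Of the 6, 3 were called higher (36.3% of all tested genes were). Col4a1 (chr8:11198423-11312889, GRCm38.p6), which with Col4a2 forms the trimer found in almost every basement membrane, was 84.4, 54.2, 82.9 and 61.4 in the knockouts and 14.4 in wild type. Its log2 change was 2.19 (SE 0.33, limma adjusted p = 0.00676), and the call held under every alternative that was run. Col4a2 was 42.9, 22.0, 47.9 and 25.2, against 8.68. Its log2 change of 1.80 (SE 0.55, adjusted p = 0.0465) passed only narrowly. The call was lost without Prdm9 KO 1 (adjusted p = 0.0798), Hop2 KO 1 (0.0886) or Hop2 KO 2 (0.0547), and without the minimum on low values (0.0982). It was also lost with a pseudocount of 5 (0.0690), without the variance trend (0.0512), and with Prdm9 KO (0.0677) or Hop2 KO (0.0535) alone against wild type.

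The other 4 type IV chains form more specialised networks, known best from kidney and skin. Col4a5 was 9.86, 6.40, 10.5 and 5.96 in the knockouts and 1.33 in wild type (log2 1.94, SE 0.40, limma adjusted p = 0.0166). Col4a4 was 11.3, 6.66, 11.7 and 5.95 against 3.62 (log2 1.05, adjusted p = 0.121), Col4a3 4.73, 2.99, 4.84 and 2.69 against 1.97 (0.66, adjusted p = 0.176), and Col4a6 2.77, 1.79, 2.93 and 1.72 against 0.890 (0.78, adjusted p = 0.0786). In each of these chains library 1 was above library 2 in both knockouts, and no knockout library reached down to wild type. With columns rescaled to 1000000, and with quantile normalization, all 6 type IV chains were called higher. Of all genes, 52.1% and 50.4% were called higher in these fits.

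Type IV genes lie in head-to-head pairs. The RefSeq starts of Col4a1 and Col4a2 (chromosome 8) are 21 bases apart, and those of Col4a5 and Col4a6 (chromosome X) 1343 bases apart. The stretches upstream of the second pair are shown because they lie between genes that were both above wild type in every knockout library. Col4a5 is given on the plus strand at chrX:141475169-141475369 and Col4a6 on the minus strand at chrX:141474096-141474326 (RefSeq, GRCm38.p6), each cut where an annotated gene body begins.
Col4a5: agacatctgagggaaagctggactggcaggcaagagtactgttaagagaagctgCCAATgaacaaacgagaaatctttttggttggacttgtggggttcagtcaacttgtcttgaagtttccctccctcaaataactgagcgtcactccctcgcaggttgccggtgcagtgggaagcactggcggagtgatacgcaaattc
Col4a6: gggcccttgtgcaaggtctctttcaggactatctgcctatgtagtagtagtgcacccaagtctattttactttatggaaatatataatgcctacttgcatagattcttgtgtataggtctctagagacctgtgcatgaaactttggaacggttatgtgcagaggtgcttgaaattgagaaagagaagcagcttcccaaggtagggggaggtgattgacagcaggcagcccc
The Col4a5 stretch holds a CCAAT and 6 CpG, and that of Col4a6 neither CCAAT nor TATAAA and 1 CpG. The levels of the partners differed: the Col4a5 value was above the Col4a6 value in all 5 libraries, and Col4a1 was above Col4a2 in all 5.

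In the basement membrane zone outside type IV the 2 tested chains took opposite directions, both of them chains that carry an antiangiogenic fragment at their end. Col18a1 (chr10:77052178-77166530, GRCm38.p6), the source of endostatin, was 140, 99.95, 116 and 148 in the knockouts and 16.9 in wild type, a change of 2.81 in log2 (SE 0.26, limma adjusted p = 0.00196). It was the highest collagen gene in every knockout library and the call held under every alternative. Col15a1, its closest relative, was 15.8, 6.99, 17.1 and 9.78 against 26.1. All 4 knockout values were below wild type, but the log2 change of -1.09 (SE 0.56) did not pass (adjusted p = 0.153), and its transcripts, given further on, did not move together. Col7a1, the chain of anchoring fibrils, had a mean under 1 and was 0.514, 0.758, 0.588 and 0.629 against 2.09.

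Of the hexagonal network chains, Col8a2 was 1.23, 0.932, 1.47 and 1.29 against 0.407 in wild type (log2 0.66, SE 0.11, limma adjusted p = 0.00897), and it fell under the minimum when Hop2 KO 1 was left out. Its partner Col8a1 was 0.227, 0.129, 0.183 and 0.1001 against 0.752, so these related chains, both present at low values, differed in direction. Among chains that span the membrane, Col13a1, known from the neuromuscular synapse, was 2.02, 1.75, 2.21 and 2.24 against 0.352 (log2 1.17, SE 0.083, adjusted p = 0.00102). Col23a1 was 1.11, 1.47, 1.17 and 1.11 against 7.17 (log2 -1.89, SE 0.12, adjusted p = 0.000737). Both had groups that did not overlap.

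Col26a1, a chain first described from testis and ovary, was 2.21, 0.776, 1.58 and 0.418 in the knockouts and 23.2 in wild type (log2 -3.50, SE 0.51, limma adjusted p = 0.00645). Col28a1 was 0.756, 1.19, 0.713 and 0.984 against 1.81 (log2 -0.56, adjusted p = 0.0433), and Col17a1, a hemidesmosome chain, was 1.17 to 1.59 against 2.50 (log2 -0.56, adjusted p = 0.0240). These last calls were small and unstable. That of Col28a1 was lost without Prdm9 KO 1 (adjusted p = 0.0563), Hop2 KO 1 (0.1003) and Hop2 KO 2 (0.0697), and that of Col17a1 without Prdm9 KO 1 (0.0700) and Prdm9 KO 2 (0.0558). Without the minimum on low values both were lost (0.0920 and 0.0575). Col28a1 also did not pass with a pseudocount of 0.1 (0.0677), without the variance trend (0.0568) and with Prdm9 KO alone (0.0686). Under the other scalings neither passed, and their sign turned to 0.17 for Col28a1 and 0.12 for Col17a1 with quantile normalization, and to 0.0052 for Col17a1 with columns rescaled to 1000000.

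The 13 weakly expressed chains, with a mean under 1, contributed little: they summed to 3.25, 3.61, 3.31 and 3.66 in the knockouts and 17.4 in wild type, which is 0.516% to 1.014% and 1.58% of collagen mRNA. Of these 13, 10 lay below wild type in all knockout libraries and 3 above it (Col5a2, Col5a3 and Col9a2). Among tested genes 46.9% lay all below and 44.2% all above. No such share was taken over genes of low value, so the count is a description only. In wild type 5 exceeded a value of 1, with Col25a1 at 3.90, Col6a5 at 2.92, Col12a1 at 2.66, Col9a1 at 2.57 and Col7a1 at 2.09. In the knockouts Col25a1 was 0.131 to 0.216 and Col9a1 0.0112 to 0.0168. A fit without the minimum called 9 of the 13 lower (41.1% of its 30272 genes were) and Col5a3 higher (19.2%), at values mostly below the 1 that is added before the logarithm.

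Each gene value is the sum of its transcripts, and these did not always move together. Of 49 tested collagen transcripts, from 27 genes, 8 were higher (27.1% of 38858 tested transcripts) and 21 lower (35.6%) in limma with adjusted p under 0.05. Several of the lower transcripts had a knockout mean under 1. They passed the minimum only through wild type, which made a lower call likely. Without Prdm9 KO 1 the higher transcripts numbered 3, without Prdm9 KO 2 or Hop2 KO 1 4, and without Hop2 KO 2 5. The transcript of highest value differed between the knockout mean and wild type in 13 of the 31 tested collagen genes (41.9%), against 20.3% of all tested genes and 26.3% of those with more than 1 transcript listed. Among collagen genes called lower this held for 9 of 12 (75.0%, against 36.7% of genes called lower with more than 1 transcript). These include Col14a1, Col20a1 and Col27a1, which passed the minimum only through wild type. Their main knockout transcript was picked among values under 1. For Col27a1 the knockout means of the main transcripts of the knockouts and of wild type were 0.158 and 0.140. For Col14a1 they were 0.342 and 0.286. Among those called higher it held for 1 of 9 (11.1%, against 15.1%).

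Several wild-type values thus came from transcripts with low or no value in the knockouts. In Col15a1, transcript ENSMUST00000102917 was 13.6, 5.71, 16.9 and 8.47 in the knockouts and 3.03 in wild type, so it was above wild type where the gene value was below it (log2 1.49, SE 0.65, limma adjusted p = 0.134). ENSMUST00000146967 was 0.063 in Prdm9 KO 2, was listed at 0 in the other knockout libraries and was 12.1 in wild type (adjusted p = 7.62e-05). Its knockout mean was 0.016, so it passed the minimum only through wild type, which made a lower call likely. The first made up 81.7% to 98.8% of Col15a1 in the knockouts and 11.6% in wild type, and the second 46.4% in wild type.

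Col20a1 came mostly from ENSMUST00000108856 in the knockouts (70.4% to 92.3%) and from ENSMUST00000155425 in wild type (84.3%, a value of 123, against at most 0.0545 in a knockout library). Both fell (limma adjusted p = 0.00273 and 7.76e-05). Their knockout means were 0.654 and 0.037, so both passed the minimum only through wild type, which made lower calls likely. In Col23a1, ENSMUST00000151098 was listed at 0 in all knockout libraries and at 5.22 in wild type, 72.8% of the gene. The other transcript of Col23a1, ENSMUST00000102765, was 1.11 to 1.47 in the knockouts and 1.95 in wild type (log2 -0.42, adjusted p = 0.0608), with a sign that turned to 0.10 with columns rescaled to 1000000 and to 0.0099 with quantile normalization. Col6a4 came from ENSMUST00000218471 in wild type (31.8, 85.8% of the gene), which was 0.706 to 1.72 in the knockouts.

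All 4 transcripts of Col22a1 fell, and ENSMUST00000160513 was its main transcript throughout, with 45.0% to 53.4% of the gene in the knockouts and 50.6% in wild type. The others shifted: ENSMUST00000159993 held 30.2% to 42.9% in the knockouts and 2.28% in wild type, whereas ENSMUST00000159410 and ENSMUST00000162081 held 23.6% and 23.5% in wild type and at most 12.1% and 16.4% in a knockout library. These last transcripts had knockout means of 0.325 and 0.621 and passed the minimum only through wild type. Col4a1 and Col18a1 also had the same main transcript in all 5 libraries. In Col4a1 all 3 tested transcripts rose, and ENSMUST00000033898 held 44.5% to 60.3% in the knockouts and 41.6% in wild type. In Col18a1, ENSMUST00000081654 held 78.5% to 90.0% and 76.1%, and rose (log2 2.94, limma adjusted p = 0.00513). Transcripts of a gene share sequence, so how the authors' counting divided reads among them bears on every such share.

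**Figure D4:**
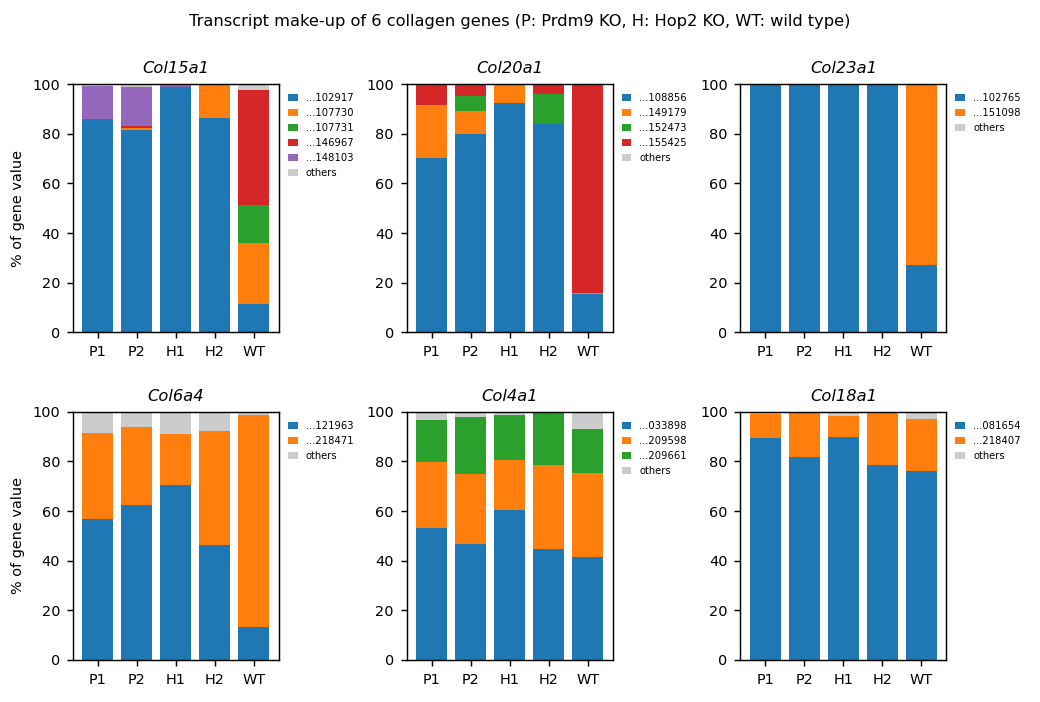
Share of 6 collagen genes held by each transcript, in percent of the gene value, in Prdm9 KO (P1, P2), Hop2 KO (H1, H2) and wild type (WT), with transcripts named by the end of their Ensembl identifier. In Col15a1, Col20a1, Col23a1 and Col6a4 the main transcript differs between knockouts and wild type, and in Col4a1 and Col18a1 it is the same.

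Between the knockouts no collagen gene passed. Of 26 members tested in a fit of the 4 knockout libraries 0 had an adjusted p under 0.05 (0.0139% of 14358 genes did) and 0 an unadjusted p under 0.05 (3.10% of genes). The median log2 change, Prdm9 KO minus Hop2 KO, was -0.17 for collagen genes and -0.035 for all genes. The members of smallest p were Col11a1, at 1.88 and 7.42 in Prdm9 KO and 0.978 and 2.10 in Hop2 KO (log2 0.99, SE 0.56, limma unadjusted p = 0.141), Col6a1 (log2 -0.54, SE 0.35, unadjusted p = 0.190) and Col5a1 (log2 -0.23, SE 0.19, unadjusted p = 0.288), all with an adjusted p of 0.972. The knockout groups did not overlap for 2 of the 26 (32.9% of genes). With 2 libraries a group and spreads of this size, the limma p-values do not show that the knockouts are alike. In the authors' deposited table of their own gene test, 0 of 43 listed collagen genes had p under 0.05 (3.93% of genes listed), 0 had q under 0.05 (0.0047% of genes), and the smallest p was 0.123 for Col27a1. That table does not name the groups compared, so it cannot be set against this comparison.

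The spread within each knockout was large for many collagen genes and mostly had the same direction in both. Library 1 was above library 2 in both knockouts for 18 of 26 tested members (40.3% of genes), and by at least 1.5 times in both for 13 of 26 (2.12% of genes). For Col1a2 the ratio of library 1 to library 2 was 2.84 in Prdm9 KO and 2.21 in Hop2 KO, for Col3a1 1.95 and 2.07, and for Col4a2 1.95 and 1.90. Col11a1 (0.253 and 0.466), Col6a6 (0.447 and 0.558) and Col9a3 (0.677 and 0.366) had library 2 above library 1. So did Col22a1 (0.939 and 0.647) and Col17a1 (0.863 and 0.736). Col18a1 was apart from the other basement membrane chains, with ratios of 1.41 and 0.783.

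Markers of several cell types had the same direction of spread. Library 1 was above library 2 in both knockouts for 6 of 6 myoid, 5 of 6 fibroblast, 5 of 6 macrophage, 6 of 8 Sertoli and 3 of 6 endothelial markers. Over the 14358 genes tested between the knockouts this share was 40.3%, and the endothelial count is near it. Other lists went the other way: library 1 was below library 2 in both knockouts for 6 of 6 pachytene, 5 of 6 spermatid and 5 of 6 cartilage markers. These 3 lists had low knockout values. Of the 6 spermatogonial markers 1 was above and 1 below. Acta2, a marker of peritubular myoid cells, was 200, 102, 251 and 154, and the 6 myoid markers summed to 800, 546, 889 and 729. Tcf21, a stromal factor, was 33.0, 18.2, 35.3 and 21.2, and the 6 fibroblast markers summed to 97.8, 68.9, 103 and 61.1. Serpinh1, the collagen chaperone HSP47, was 57.7, 23.3, 72.6 and 39.9. Thy1, a fibroblast marker, went the other way in Prdm9 KO (3.48 and 5.20). The macrophage markers summed to 673, 425, 760 and 646, and the Sertoli markers to 1445, 1162, 1474 and 1381. The Leydig markers were mixed, with library 1 the higher in both knockouts for 3 of 7 and the lower for 2, which were Hsd3b1 and the abundant hormone gene Insl3 (31180, 44710, 21030 and 68220). The part of these cell types in the collagen values was not tested.

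**Figure D5:**
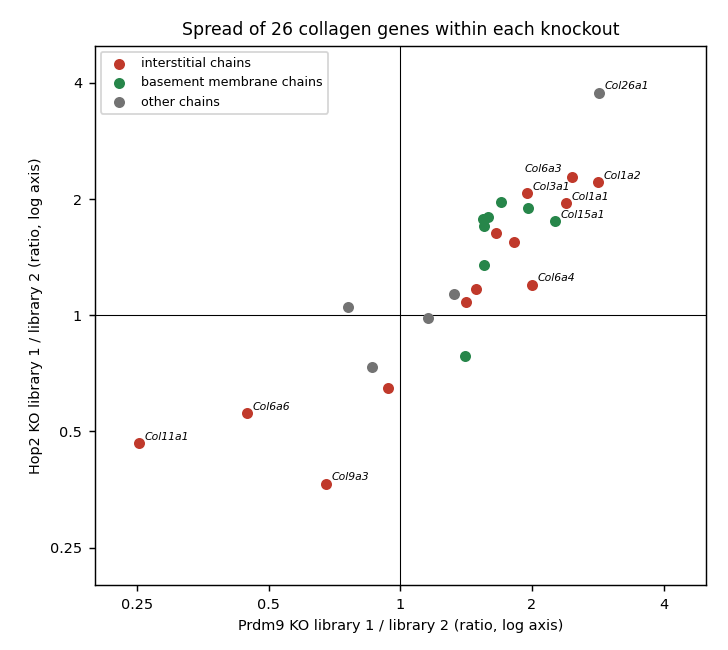
Ratio of library 1 to library 2 within Prdm9 KO (x axis) and within Hop2 KO (y axis), both on log axes, for the 26 collagen genes tested between the knockouts. Of the 26 points 18 lie in the upper right, where library 1 is the higher in both knockouts. Col11a1, Col6a6, Col9a3, Col22a1 and Col17a1 lie in the lower left.

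Genes that modify, cleave, cross-link, coat and digest collagen were mostly higher in the knockouts, and collagen receptors were mixed. Among 18 genes for chain modification in the endoplasmic reticulum 13 of 16 tested rose and 1 fell (against 36.3% and 40.5% of all tested genes), with a median log2 change of 1.82. Plod2, a lysyl hydroxylase, was 30.6 to 34.6 in the knockouts and 3.81 in wild type (log2 2.80, limma adjusted p = 0.000315). P3h4, a partner of that enzyme family, was 42.9 to 53.6 against 9.30 (log2 2.25). Mia3, the factor that loads procollagen for export, fell (log2 -1.03, adjusted p = 0.00288), a call lost with columns rescaled to 1000000 (-0.17, adjusted p = 0.231) and with quantile normalization. Serpinh1 had 10.4 in wild type and did not pass (log2 2.00, adjusted p = 0.0529), but did without Prdm9 KO 2 (adjusted p = 0.0332).

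Of 9 tested genes for propeptide cleavage and cross-linking 7 rose and 0 fell (against 36.3% and 40.5% of all tested genes), with a median of 1.53. Pcolce, the enhancer of propeptide cleavage, was 644 to 762 in the knockouts and 119 in wild type (log2 2.60, limma adjusted p = 0.000668), and Loxl2, a cross-linking oxidase, was 7.30 to 9.47 against 0.921 (log2 2.27). All 5 tested small leucine-rich proteoglycans, which coat fibres, rose (median 1.92), with Dcn at 130, 73.7, 165 and 102 against 19.5 (log2 2.47, adjusted p = 0.0120) and Bgn at 85.8 to 129 against 18.5 (log2 2.43). Of these 5, Ogn did not pass without Prdm9 KO 1 (adjusted p = 0.0520), Prdm9 KO 2 (0.0684) or the minimum on low values (0.0607).

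Laminins and other basement membrane partners had 9 of 15 higher and 1 lower (against 36.3% and 40.5% of all tested genes), with a median of 1.19. Lamb2 was 176 to 222 against 30.7 (log2 2.60, limma adjusted p = 0.000623) and Lamc1 22.3 to 29.1 against 4.09 (log2 2.40), while Lamb3 was 0.684 to 1.44 against 9.36 and fell (log2 -2.32, adjusted p = 0.00404). Of 7 tested collagen receptors 3 rose and 2 fell (median 0.67). Ddr1, a receptor kinase for collagen, was 177 to 214 against 16.3 (log2 3.53, adjusted p = 0.000248). All 4 collagen-binding integrin alpha subunits were below wild type in every knockout library, whereas their beta partner Itgb1 was above it (105 to 117 against 24.3). Itga1, which prefers type IV collagen, was 0.964 to 1.90 against 15.2 and fell (log2 -2.77, adjusted p = 0.00197), and Itga11 was 0.715 to 0.903 against 6.05 (log2 -1.94). Itga11 passed the minimum only through wild type, which made its lower call likely. Itga2 (0.0326 to 0.0816 against 1.27) and Itga10 (0.112 to 0.188 against 0.816) had means under 1 and were not tested. All 7 tested collagenases and inhibitors rose (median 1.85), with Timp1 at 66.3 to 114 against 0.996 (log2 5.599, adjusted p = 0.000489) and Mmp14 at 115 to 130 against 25.6 (log2 2.21). The collagenases Mmp8 (at most 0.0042 in a knockout against 0.060) and Mmp13 (0.011 to 0.049 against 0.018) were not tested. Nor was the inhibitor Timp4, which lay below wild type (0.060 to 0.137 against 1.35). Mmp2 lost its call (adjusted p = 0.0423) without Prdm9 KO 1 (0.0579), Hop2 KO 1 (0.0934) or Hop2 KO 2 (0.0630), and without the minimum on low values (0.0918), with a pseudocount of 5 (0.0962) and with Hop2 KO alone (0.0648). No test compared these lists with other genes.

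Markers of the cells that lie around germ cells were mostly higher in the knockouts. All 8 Sertoli markers rose (median log2 change 2.15), as did 6 of 7 Leydig (2.73) and 6 of 6 macrophage markers (2.71). So did 5 of 6 endothelial (0.91) and 4 of 6 myoid markers (1.23). Of all tested genes 36.3% rose and 40.5% fell. Of 6 spermatogonial markers 5 rose and 1, Gfra1, fell (log2 -0.60, limma adjusted p = 0.0145). Gfra1 did not pass with median-of-ratios scaling (adjusted p = 0.0569) or with Prdm9 KO alone (0.0829). Its sign turned to 0.067 with columns rescaled to 1000000 and to 0.10 with quantile normalization. Of 5 tested fibroblast markers 2 rose and 2 fell (median -0.99). Pdgfra (29.2 to 55.8 against 6.07) and Tcf21 rose, and Mfap5 (3.34 to 5.05 against 21.4) and Thy1 (2.99 to 5.20 against 10.6) fell. The Thy1 call was lost with columns rescaled to 1000000 (log2 -0.57, limma adjusted p = 0.121). Pachytene markers (6 of 6, median -8.49) and spermatid markers (6 of 6, median -13.1) fell. Only 3 of the 6 pachytene and 4 of the 6 spermatid markers reached the minimum over the knockout libraries. The rest passed it only through wild type, which made their lower calls likely. The calls of Acta2 and Myh11 were lost without Hop2 KO 1 (adjusted p = 0.0874 and 0.0900) and without Hop2 KO 2 (0.0604 and 0.0652), and that of Myh11 without Prdm9 KO 1 (0.0635). Neither passed without the minimum on low values (0.0825 and 0.0717) or with Prdm9 KO alone (0.0670 and 0.0706). The part of the cell make-up in the collagen differences was not tested.

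Meiotic breaks in 1 further testis library, from Prdm9 (K/K) mice whose PRDM9 lacks its KRAB domain, were set beside the collagen genes. Single-stranded DNA peaks (SSDS, mm10) lay in 14 of 44 collagen genes (31.8%, 33 peaks), against 50.6% of 21887 protein-coding genes. Collagen genes are long, and of the 22 at least as long as their median 9 held a peak (40.9%), against 77.8% of 2030 protein-coding genes of at least that length. Col19a1 held 8 of the 33 peaks and Col24a1 4. A peak met 8 of 38 collagen promoter windows (21.1%, against 32.8% of 32851 windows), those of Col11a1, Col1a2, Col25a1, Col4a5, Col4a6, Col8a1, Col9a1 and Col9a2. A peak at chrX:141474178-141476495 covers the Col4a5 start and reaches into the stretch upstream of Col4a6 shown above, and a peak at chr6:4504239-4507198 spans the Col1a2 stretch. With 1 library the overlap has no replicate check and no test was made.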

How the data were processed

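mRNA of 5 testis libraries was analysed out of 28 samples in the series, in groups taken from titles and genotypes. Values are a signal of abundance that the authors deposited as TPM per gene and per transcript. The submitters' processing notes name CASAVA, kallisto, sleuth, GRCm38 and mm10 (versions: not given in the sources used here). Column sums depart from 1000000, so the values were rescaled by factors that no source used here states. A table of p-values and q-values from a gene test of the authors was also used, and it does not name its groups. Break peaks were called with MACS2 2.1.0.20150420 per the submitters' processing notes, and the deposited peak intervals were used as other values, by position only. microRNA tables and histone libraries were not used.

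The test was limma 3.58.1 (R 4.3.3), trend option on, applied to log2(value + 1). Genes or transcripts entered when their mean over the libraries of a fit reached 1, and Benjamini-Hochberg adjustment covered all of them, with a threshold of 0.05. A fold change on this scale understates changes at low values. The fit was tested on simulated data. Chains were grouped by class, and per-library values are given for, in each class, the 2 members of highest mean, the 2 of largest change, all that were called higher, and gene pairs. From other lists the 2 members of largest change are named, and further genes were named after their values were seen. Col21a1 matched no row and was not analysed here. The members, classes, lists and tests were chosen with earlier results of these data known. Alternatives changed the pseudocount, minimum, scaling, trend, libraries, groups and replicate block. All 44 genes matched the RefSeq table (GRCm38.p6). The number of unused per-sample columns was 0. Tables were handled in Python 3.11.15 with pandas 2.3.3.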

Additional observations from a re-analysis of the deposited data

How the results depend on the processing

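For knockouts against wild type, 6 of the 9 collagen genes called higher and 10 of the 12 called lower kept their call under every alternative in which they were tested. Col3a1, Col4a2, Col6a2, Col17a1 and Col28a1 did not. The 9 higher calls became 15 with columns rescaled to 1000000 and 15 with quantile normalization, and ranged from 6 to 11 with 1 library left out. The 12 lower calls became 19 without the minimum on low values, as 44 members were then tested, and ranged from 12 to 13 with 1 library left out. The sign reversed for Col5a1 (0.16) and Col17a1 (0.0052) with columns rescaled to 1000000 and for Col28a1 (0.17) and Col17a1 (0.12) with quantile normalization. For transcripts, the 8 higher calls became 16 when rescaled and 18 with quantile normalization, and 3 to 5 with 1 library left out. The 21 lower calls became 67 without the minimum, with 185 transcripts tested, and 7 with a mean of at least 5, with 22 tested. ENSMUST00000102765 of Col23a1 reversed to 0.10 when rescaled and 0.0099 with quantile normalization. Between the knockouts 0 collagen genes were called under every alternative. Over single genes and transcripts, other alternatives left the call as it was in 387 gene and 432 transcript results, removed it in 28 and 30, and added it in 33 and 28. The cause of these changes was not tested, apart from the number of features tested.

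The libraries share only a number in their titles. Deviations of Prdm9 KO 1 and Hop2 KO 1 from their group means correlated at 0.413 over 14358 tested genes and 0.850 over 26 collagen genes. With the replicate block, 16 collagen genes and 19 transcripts were higher, against 9 and 8 without it, and 14 and 23 lower. No share over all genes or transcripts was taken for this fit, so these counts are a description only. The genes it added were Col4a3, Col4a4, Col4a6, Col6a3, Col6a6, Col1a1 and Col1a2 (higher) and Col15a1 and Col5a1 (lower). Read depth is unknown, so what it limits could not be assessed. The single wild-type library has no replicate, the age of the knockout mice is not given, and the rescaling factors are not known.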
